A study of Bos taurus with 6 samples.

Results

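SHOX2, DLX6 and SP8 are transcription factor genes of limb and craniofacial development, and each lies beside a stretch of DNA that the authors' deposited table lists as methylated differently between Creole and Spanish cattle. They were taken as 3 of the 263 gene names in that table, and their regions as 3 of its 334 regions. The table was made from the same 6 libraries that are described here, so the listed regions were chosen on measured values and are given below as a description with no test. For each gene, the coordinates given in the table were extended by 50000 bp on each side, and every cytosine with at least 10 methylation calls in a library was used. These 3 intervals held between 134 such cytosines in Creole 2 and 649 in Creole 1, out of 505231 and 1604013 on the chromosomes.

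Methylation was measured in blood DNA of 6 adult male cattle of 5 breeds, with 1 library per animal, by reduced representation bisulfite sequencing. In this assay genomic DNA is cut by MspI, an enzyme that cuts at CCGG whether or not the inner CpG is methylated, and a narrow size class of fragments is treated with bisulfite and sequenced, so that reads pile up at CpG-rich sites. The Creole group held 1 Sanmartinero bull (Creole 1) and 2 Costeno con Cuernos bulls (Creole 2 and Creole 3), and the Spanish bulls were of 3 breeds. Spanish 1 was a Retinta, Spanish 2 belonged to the breed Asturiana de los Valles, and the Lidia bull is called Spanish 3. The DNA of the Creole bulls was extracted with the UltraClean BloodSpin kit and that of the Spanish bulls with the QIAamp kit, and the lane mark in the file names separates the groups in the same way, so breed group, kit and lane cannot be told apart. Blood is a mixture of cell types, and a different mixture of cells and a different methylation within cells cannot be told apart either.

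Cytosines at CpG sites carry a methyl group over most of a mammalian genome, while CpG islands, which often hold the start sites of genes, are usually free of it. Genes of developmental transcription factors tend to lie in broad unmethylated CpG-rich domains that are held silent by Polycomb proteins in cells, such as those of blood, that do not use them. SHOX2 is a homeobox factor of the proximal limb, the palate and the sinus node of the heart. DLX6 is a distal-less homeobox factor that shapes the lower jaw and the limb together with its close neighbour DLX5. SP8 is a zinc finger factor of the apical ectodermal ridge, the signalling tissue at the tip of the limb bud, and of the developing forebrain and face.

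The deposited files held between 40986296 and 84537374 calls per library, with a median of 8 to 19 calls per covered cytosine. Creole 1 stood apart from the other libraries. Over all chromosomes, 26.4% of its cytosines lay between 5% and 95% methylation, against 5.47 to 7.04% in the other 5 libraries. Of the 13 marker genes of blood and of other tissues, 0 had a listed region, so the tissue label could not be checked against them. The libraries covered largely different fragments: of the 2818800 chromosomal cytosines with 10 calls in any library, 22289 had them in all 6.

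Few cytosines of the 3 intervals were measured in every animal. The SHOX2 interval (chromosome 1, gene at 110277782 to 110286193, build UMD3.1) held 236 cytosines with 10 calls in at least 1 library, and 12 of these had them in all 6. The DLX6 interval (chromosome 4, gene at 14276357 to 14281435) held 539 such cytosines and 0 with them in all 6. The SP8 interval (chromosome 4, gene at 29595419 to 29597808) held 361 and also 0. The measured cytosines crowded around the genes: beyond 25 kb from the gene coordinates, 3 cytosines were measured, all near DLX6 in Creole 1. Values of DLX6 and SP8 are therefore given over the cytosines that each library measured for itself, and part of any difference between libraries can come from which cytosines those were.

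The 3 intervals were less methylated than the chromosomes as a whole. At SHOX2 the mean methylation over each library's own cytosines was 35.0% in Creole 1, 14.8% in Creole 2 and 5.89% in Creole 3, and 10.5%, 12.2% and 2.87% in Spanish 1, 2 and 3. At DLX6 it was 36.3%, 21.8% and 25.9% in the Creole libraries and 21.0%, 8.74% and 9.10% in the Spanish libraries. At SP8 it was 38.6%, 41.7% and 48.7% in the Creole libraries and 5.77%, 0.728% and 7.71% in the Spanish libraries. The same mean over all chromosomes lay between 50.8% and 57.2%, so all 18 interval means were below that of their own library. SP8 had both the highest values, in the Creole animals, and the lowest value, in Spanish 2.

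**Figure D1:**
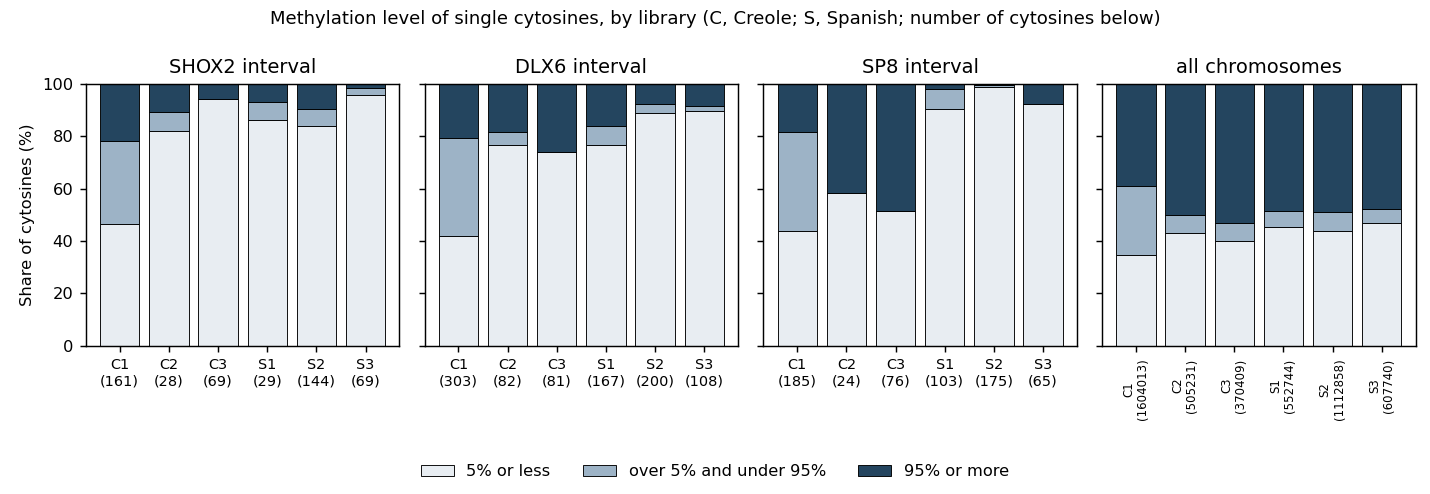
Share of cytosines (vertical axis, %) at 5% methylation or less, between 5% and 95%, and at 95% or more in each library, for the SHOX2, DLX6 and SP8 intervals and for all chromosomes, with the number of cytosines with 10 or more calls in brackets. In the other 5 libraries most cytosines of the intervals lie at 5% or less, Creole 1 has a wide middle class in every panel, and Creole 2 and Creole 3 have 41.7% and 48.7% of their SP8 cytosines at 95% or more.

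The plot of methylation classes by library shows that most cytosines were either unmethylated or fully methylated. At SP8 in Creole 2, 58.3% of cytosines stood at 5% or less and 41.7% at 95% or more, with 0.0% in between. In Creole 3 the classes held 51.3%, 48.7% and 0.0%. In Spanish 2, in contrast, 98.9% of the SP8 cytosines stood at 5% or less. The Creole means at SP8 were thus averages of fully methylated and unmethylated cytosines and not of evenly intermediate ones, apart from Creole 1, where 37.8% lay in between.

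Methylation was lower in the intervals also at a matched density of covered cytosines, except in the densest bins. In bins of 100 bp with 1 to 4 covered cytosines, the median over the bins of the 3 intervals was between 0.0% and 17.5% per library, against 66.7 to 78.4% over all such bins of the chromosomes, and it was lower in 6 of 6 libraries. With 5 to 9 cytosines per bin the medians were 0.0 to 28.8% against 68.2 to 71.7%, again lower in 6 of 6. In the densest bins, with 10 or more, the medians of the chromosomes were themselves low, and the intervals were lower in 4 libraries and higher in 2. The 2 exceptions were Creole 1, at 52.4% over 17 bins against 38.1%, and Creole 3, at 30.8% over 5 bins against 15.4%. The lower medians rested on few bins and were near the floor. Creole 2 had 0.0267% over 1 bin against 9.13%, and Spanish 2 had 0.164% over 7 against 2.42%. Spanish 1 had 0.0% over 9 bins against 0.402%, and Spanish 3 had 0.0% over 4 against 0.214%. These are descriptions of bins that share libraries and fragments.

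The SHOX2 listed region (chromosome 1, 110288508 to 110288587) lies 2315 bp past the higher end of the gene coordinates. Neither a gene overlap nor a CpG island is given for it in the authors' deposited table, which puts its 6 CpGs at 83% in Creole and 19% in Spanish cattle. Over the deposited calls, the region read 34.9% in Creole 1, 28.8% in Creole 2 and 42.8% in Creole 3. Creole 1 was read there at 12 cytosines on both strands, and each other library at 7 cytosines of 1 strand. It read 29.0% in Spanish 1, 28.6% in Spanish 2 and 0.707% in Spanish 3. The group means were 35.5% ± 7.02 and 19.4% ± 16.2 (SD, n = 3 each) and the groups overlapped, with Spanish 3 alone near zero. The Spanish mean was near that of the authors' deposited table, and the Creole mean was well below the 83% printed there.

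The similar totals of 5 libraries at SHOX2 came from different cytosines. At position 110288508, Creole 2 read 100% over 102 calls and Creole 1 66.0% over 47, while Creole 3 read 2.48% and the 3 Spanish libraries 0.0%. At 110288551, Creole 2 and Creole 3 each read 100%, Creole 1 read 2.17% and the Spanish libraries 0.0%. At these 2 of the 12 cytosines measured in every library, each Creole value lay above each Spanish value, and at 0 of the 12 the reverse held. At 110288519 the order was the other way round for the extremes, with 100% in Spanish 1 (35 calls) and Spanish 2 (19 calls), 20.0% in Creole 1 and 0.0% in Creole 2 and Creole 3. At 110288522, Creole 3 read 98.3% and Spanish 2 read 100%, while Creole 2, Spanish 1 and Spanish 3 read 0.0%. On this strand, neighbouring CpGs of the SHOX2 region thus switched between unmethylated and methylated within a few bases, and each animal had its own pattern. The other strand, which Creole 1 alone read with 10 calls, did not always match. There Creole 1 read 100% at 110288509 and 110288520, 70.0% at 110288552 and 0.0% at 110288523. Spanish 1 had 2 calls on that strand, both methylated at 110288509 and at 110288552.

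**Figure D2:**
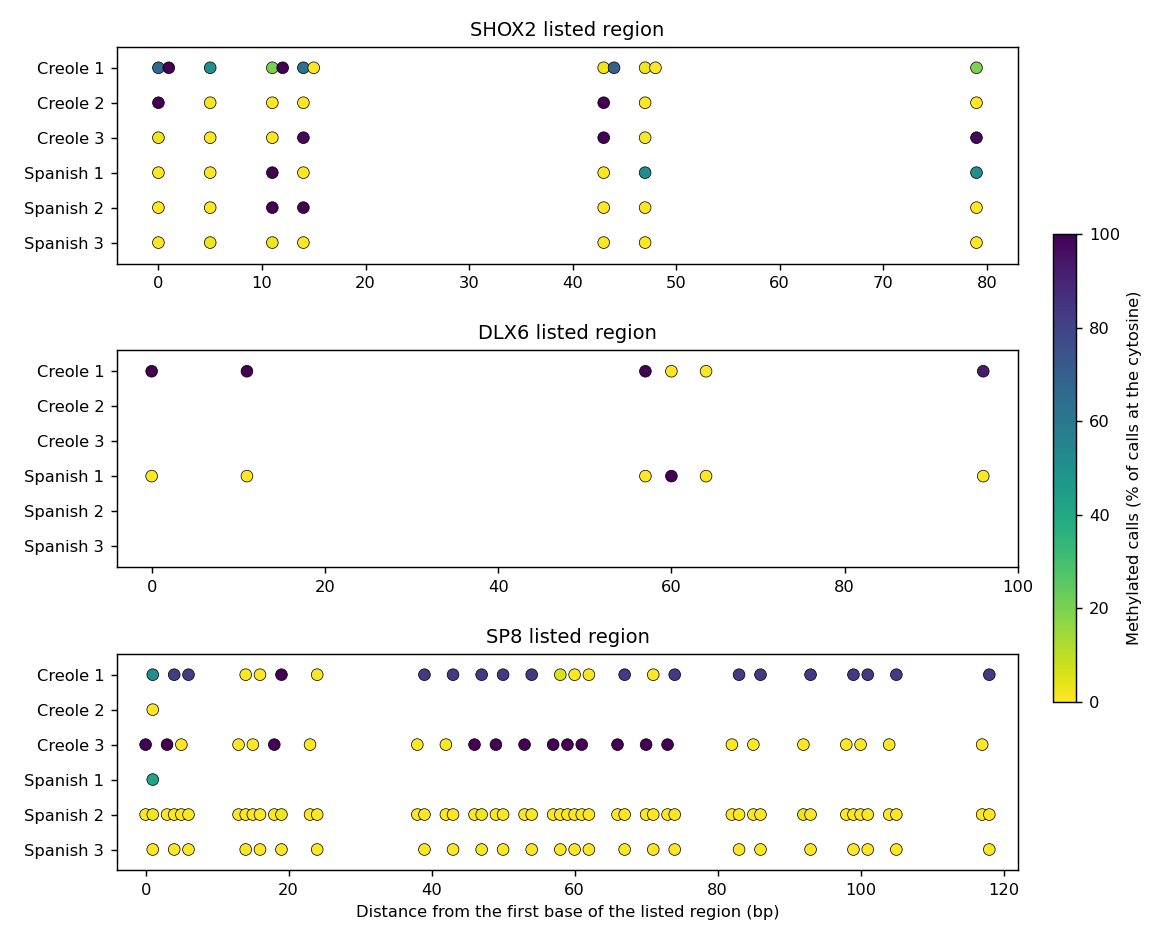
Methylation (colour, % of calls) of each cytosine with 10 or more calls in the listed regions of SHOX2, DLX6 and SP8, by library (rows) and distance from the first base of the region (horizontal axis, bp). Most cytosines are near 0% or 100%, the methylated ones differ between libraries at SHOX2, and DLX6 was measured in Creole 1 and Spanish 1 alone.

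The colour plot of single cytosines also shows how thinly the DLX6 region was measured. This listed region (chromosome 4, 14273858 to 14273954) lies 2403 bp before the lower end of the gene coordinates, with 6 CpGs at 64% in Creole and 26% in Spanish cattle in the authors' deposited table. With 10 calls as the minimum, 1 library of each group could be read. Creole 1 read 65.1% (95% Wilson interval 57.7 to 71.8%, 172 calls) and Spanish 1 read 16.7% (11.9 to 22.8%, 180 calls). Wilson intervals cover counting error only, since reads made by PCR without molecular identifiers are not independent molecules. Creole 1 was methylated at 4 of the 6 cytosines and Spanish 1 at 1, and that cytosine was one at which Creole 1 was unmethylated: at 14273918, Creole 1 had 0 methylated calls of 29 and Spanish 1 had 30 of 30. With 1 library per group there is no replicate check of the DLX6 region.

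The SP8 listed region (chromosome 4, 29608433 to 29608551) is the farthest of the 3 from its gene, 10625 bp past the higher end, and the densest. The authors' deposited table counts 50 CpGs in its 119 bp, places it in the core of a CpG island that spans 29607851 to 29609166, and gives 54% for Creole and 11% for Spanish cattle. In the deposited calls the region also held 50 cytosines, counted on both strands of each CpG. Creole 1 read 59.1% and Creole 3 read 48.4%, both over 25 cytosines. Creole 2 read 0.0% over the 155 calls of its 1 measured cytosine, which allows a share of up to 1.94%. Spanish 1 read 41.5% (95% Wilson interval 27.8 to 56.6%), also over 1 cytosine with 41 calls, whereas Spanish 2 read 0.189% over 50 cytosines and Spanish 3 read 0.0336% over 25. The group means were 35.8% ± 31.5 and 13.9% ± 23.9 (SD, n = 3 each), and the groups overlapped.

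The methylated libraries at the SP8 island had a repeated pattern along the fragment. In Creole 3, 12 of its 25 cytosines read 134 methylated calls of 134, and the other 13 stood at 5% or less. In Creole 1, 14 of its own 25 cytosines, on the other strand, read the same 15 methylated calls of 18. Cytosines of 1 fragment are read by the same molecules, so that the number of cytosines does not count as a number of independent measurements. In the rest of the island, outside the listed region, the mean was 47.4% in Creole 1 (10 cytosines), 0.0% in Creole 2 (9) and 0.0% in Creole 3 (2), and 35.2% in Spanish 1 (9), 0.1% in Spanish 2 (20) and 0.0% in Spanish 3 (2). There Creole 1 and Spanish 1 were methylated together, and Creole 2 and Creole 3 were not.

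Most CpGs of the intervals whose strands differed widely were read in Creole 1, which also read the most CpGs on both strands. A CpG can be read on both strands, and maintenance methylation normally keeps the 2 cytosines alike. Of the 98 CpGs of the intervals that Creole 1 read on both strands with 10 calls each, 40 (40.8%) differed by more than 50 percentage points between the strands, with a median difference of 45.1 points. The share over all chromosomes in Creole 1 was 16.4%, below the 19.3% of Creole 2 and the 20.2% of Creole 3. It was 15.9% in Spanish 1 and 12.5% in Spanish 3. In Spanish 2, 1 of 67 such CpGs differed by that much, against 13.3% over all chromosomes. The counts were 2 of 4 in Creole 2, 0 of 8 in Creole 3 and 0 of 33 in Spanish 1, and Spanish 3 read 0 CpGs of the intervals on both strands. Among pairs of cytosines 2 to 20 bp apart with call totals within 5% of each other, where at least 1 stood at 95% or more, the other stood at 5% or less in 35.1 to 78.1% of pairs in the intervals and in 13.8 to 22.3% over all chromosomes. That share was higher in the intervals in 6 of 6 libraries. Over all such neighbour pairs, whatever their level, the share of opposite pairs was 13.5%, 17.5% and 20.4% in the intervals in Creole 1, 2 and 3, above the 6.21%, 10.8% and 11.9% of their chromosomes. In the Spanish libraries it was 9.36%, 6.62% and 5.99%, below the 9.72%, 8.22% and 9.40% of theirs. These values move with the methylation levels given above, and their part in the results was not tested.

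Outside the listed regions, the SP8 interval separated the groups most widely. The mean over each library's own cytosines was 35.3% in Creole 1, 43.5% in Creole 2 and 49.1% in Creole 3, against 5.42% in Spanish 1, 0.948% in Spanish 2 and 12.5% in Spanish 3. The group means were 42.6% ± 6.92 and 6.29% ± 5.83 (SD, n = 3 each), a difference of 36.3 points with no overlap. DLX6 also showed no overlap, by a narrow margin: 35.7%, 21.8% and 25.9% in the Creole libraries against 21.1%, 8.74% and 9.10% in the Spanish libraries, or 27.8% ± 7.17 against 13.0% ± 7.06 (SD, n = 3 each). Creole 2 and Spanish 1 were 1 point or less apart there. Both DLX6 flanks overlapped between the groups. Spanish 3 (24.0%) lay above Creole 3 (19.9%) on the lower-coordinate side, and Spanish 1 (33.5%) was the highest library on the other. Within the DLX6 gene coordinates the groups did not overlap, but Creole 3 at 11.1% (9 cytosines) was close to Spanish 1 at 10.3% (67). At SHOX2 the groups overlapped, with 34.5%, 10.2% and 1.73% against 4.62%, 11.3% and 3.12%. The SHOX2 difference of 9.13 points rested on Creole 1 and was -0.386 points without it. How often intervals of this size separate the groups elsewhere on the chromosomes was not computed. The 3 intervals were chosen beside listed regions that were higher in Creole animals, so the separation at SP8 and DLX6 is no independent evidence.

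With 10 calls as the minimum, cytosines common to all animals could be compared over SHOX2 alone. Outside its listed region, 5 cytosines were measured in all 6 libraries, and their mean was 23.8%, 0.196% and 0.0% in Creole 1, 2 and 3 and 0.0%, 60.0% and 0.0% in Spanish 1, 2 and 3. The difference of -12.0 points was not larger than the spread within the groups (exact two-sided permutation test, p = 1.0, where 3 libraries against 3 cannot go below 0.1). It was 7.98 points without Spanish 2, so that 1 library set its direction. At 3 of these cytosines Spanish 2 read 100% over 19 calls while the other 2 Spanish libraries read 0.0%. The last of the 5, at 110288603, read 0.0% in all 6 libraries.

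Windows of 1000 bp were then compared with edgeR's quasi-likelihood test, fitted on all chromosomes. Over cytosines shared by all 6 libraries, 2402 windows could be tested and 0 passed an adjusted p of 0.05, with 135 (5.62%) at an unadjusted p under 0.05. edgeR's likelihood ratio test called 16 of them and limma 0. None of these windows lay in an interval outside a listed region. With 1 call as the minimum in every library, a setting added after the data were seen, 4702 windows could be tested and 0 passed (background 0%), with 252 at an unadjusted p under 0.05. Of these windows, 2 lay in the intervals outside a listed region. The DLX6 window at 14294001 to 14295000 held 6 shared cytosines and read 30.5%, 16.7% and 0.0% in Creole 1, 2 and 3 and 0.0%, 16.7% and 0.0% in Spanish 1, 2 and 3, with 12 calls in Spanish 3 (adjusted p = 0.973 by edgeR). The SHOX2 window at 110277001 to 110278000 held 3 and read 2.02% in Creole 1 and 0.0% in the other 5 libraries (adjusted p = 0.906 by edgeR). In bins of 100 bp, 1 SHOX2 bin could be tested (110288401 to 110288500), where edgeR's p was 0.343 and its adjusted p 0.933. A second fit, chosen after the data were seen, used each library's own cytosines and asked for 2 or more libraries of each group. It held 37870 windows, of which 13 lay in the 3 intervals outside the listed regions: 3 of SHOX2, 8 of DLX6 and 2 of SP8. Of the 13, 0 passed the adjusted threshold, as did 0 of all 37870 (background 0%), and 1 had an unadjusted p under 0.05, where the background was 3.26%. The likelihood ratio test called 1 of the 13, over SP8, and limma 0.

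The Creole libraries all lay above the Spanish libraries in 4 of the 13 windows, and the reverse held in 0 (backgrounds 10.5% and 12.0% of all windows). The Creole mean was the higher one in 11 of the 13. Libraries recur in every window, and the intervals were chosen for listed regions that were higher in Creole animals, so the shared direction is no independent evidence. The 4 windows without overlap were both windows of SP8 and 2 of DLX6. In the DLX6 window at 14278001 to 14279000, inside the gene coordinates, Creole 1 and Creole 2 read 51.9% and 80.0%, and the Spanish libraries read 30.8%, 0.0% and 8.33% (adjusted p = 1.0 by edgeR). In the DLX6 window at 14280001 to 14281000, Creole 1 and Creole 3 read 17.2% and 11.1%, and Spanish 1 and Spanish 2 read 5.18% and 0.0% (adjusted p = 1.0 by edgeR).

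**Figure D3:**
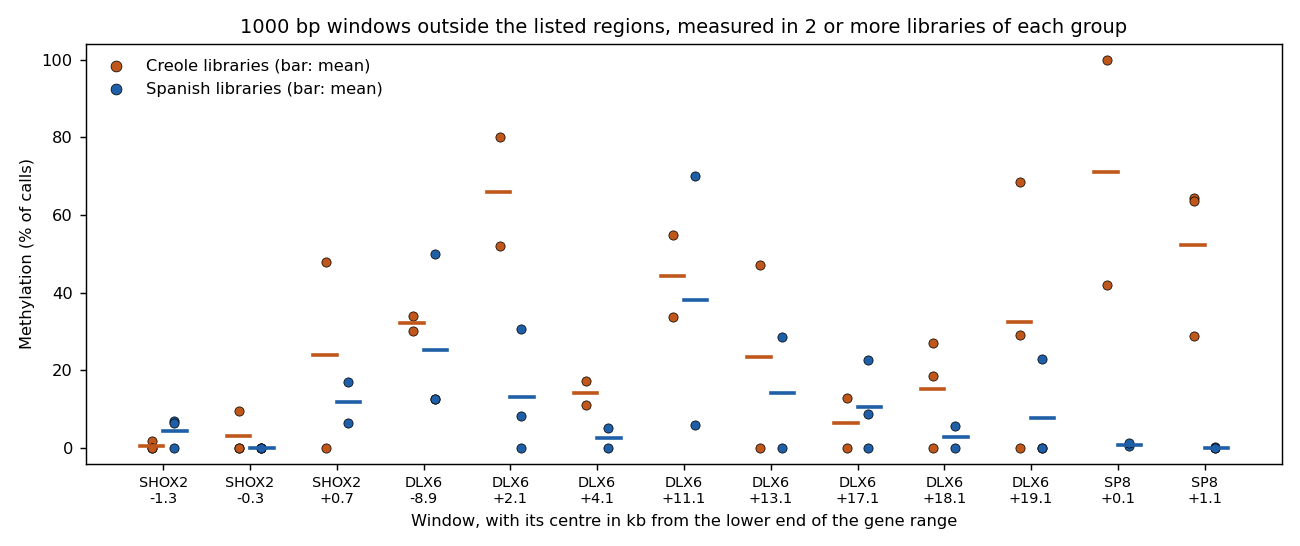
Methylation (vertical axis, % of calls) of each library in the 13 windows of 1000 bp outside the listed regions that were measured in 2 or more libraries of each group, with bars at the group means. The horizontal axis names the gene and the distance of the window's centre from the lower end of the gene coordinates (kb). Both SP8 windows separate the groups, and the SHOX2 windows and most DLX6 windows overlap.

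The remaining DLX6 windows varied as much within a group as between groups. At 14295001 to 14296000, 13566 bp past the gene, the Creole libraries read 29.0%, 0.0178% and 68.4% and the Spanish libraries 22.9%, 0.0% and 0.0%. At 14287001 to 14288000, Creole 1 and Creole 2 read 54.8% and 33.6%, and Spanish 1 and Spanish 2 read 70.0% and 5.98%. In both, libraries of 1 group lay further apart than the group means, and Spanish 1 was the highest Spanish library. At SHOX2, the windows at 110276001 to 110277000 and 110277001 to 110278000, which lead up to and across the lower end of the gene, stayed under 10% in all 6 libraries. The window next to them in the gene, 110278001 to 110279000, read 47.8% and 0.0% in the Creole libraries 1 and 3, while Spanish 2 and Spanish 3 read 17.0% and 6.48%.

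Both SP8 windows lie over the gene itself, more than 10 kb from its listed region. In the window at 29596001 to 29597000, Creole 1 read 64.4%, Creole 2 read 63.6% and Creole 3 read 28.9%. Spanish 2 read 0.311%, and Spanish 1 and Spanish 3 read 0.0% over 286 and 1515 calls, which allows up to 1.05% and 0.198%. The group means were 52.3% ± 20.3 and 0.104% ± 0.179 (SD, n = 3 each), and the unadjusted p of edgeR's quasi-likelihood test was 0.00145, with an adjusted p of 1.0 over all windows. The adjusted p was 3.95e-07 by edgeR's likelihood ratio test, which called 2.17% of all windows, and 0.809 by limma. In the adjoining window at 29595001 to 29596000, Creole 1 and Creole 3 read 41.9% and 100%, and Spanish 1 and Spanish 2 read 0.513% and 1.23% (adjusted p = 1.0 by edgeR).

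Over the whole SP8 gene range, a stretch named after its values were seen, the groups did not overlap. How often other gene ranges separate the groups was not computed. The mean of single cytosines was 40.5% in Creole 1 (87 cytosines), 63.6% in Creole 2 (11) and 61.5% in Creole 3 (39). It was 0.609% in Spanish 1 (58), 0.235% in Spanish 2 (70) and 0.0% in Spanish 3 (15, with 0 methylated calls of 1515). The means were 55.2% ± 12.8 for Creole and 0.281% ± 0.307 for Spanish (SD, n = 3 each), a difference of 54.9 points, and leaving out each library in turn moved it between 50.7 and 62.3. In the plot of single cytosines over the SP8 gene, the Creole cytosines lie on a few levels and the Spanish cytosines almost all at zero.

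**Figure D4:**
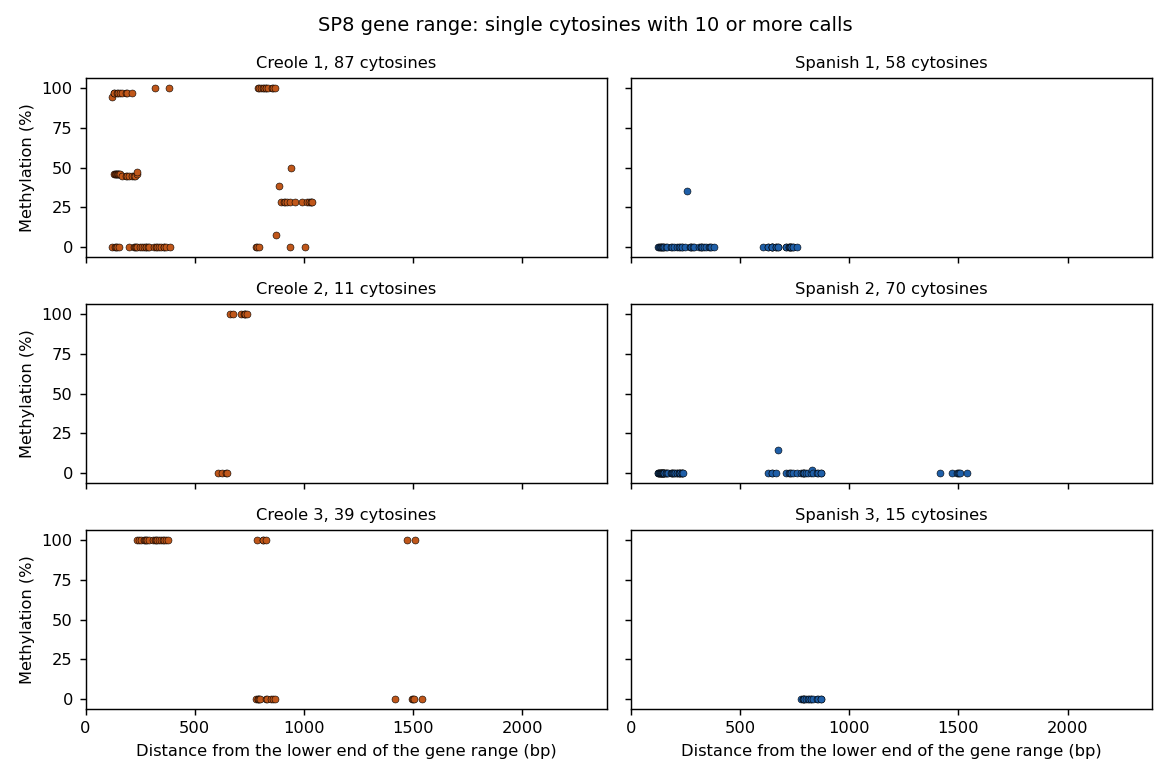
Methylation (vertical axis, %) of each cytosine with 10 or more calls over the SP8 gene range, by distance from its lower end (horizontal axis, bp), with 1 panel per library. Creole 1 shows levels near 0%, 28%, 45% and 100%, Creole 2 and Creole 3 show 0% and 100%, and nearly all cytosines of the 3 Spanish libraries lie at 0%.

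The SP8 difference was also present where a Creole and a Spanish library measured the same cytosines. In the window at 29595001 to 29596000, Creole 1 read 46.5% and Spanish 2 read 1.23% over the same 44 cytosines. Over 18 shared cytosines of that window, Creole 3 read 100% of 2824 calls and Spanish 1 read 1.90% of 631. In the window at 29596001 to 29597000, Creole 2 read 63.6% and Spanish 1 read 0.0% over 11 shared cytosines. Creole 3 read 28.6% and Spanish 3 read 0.0% over 14, and Creole 1 read 78.7% and Spanish 2 read 0.153% over 14. Each of the 6 libraries thus entered at least 1 pair in which the Creole library was the higher one at the same sites, and no pair of Creole and Spanish libraries in these windows went the other way. Creole libraries shared 1 cytosine with each other there, at which Creole 1 read 0.0% over 42 calls and Creole 3 read 100% over 157.

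Outside the gene the SP8 flanks did not all follow that order. On the lower-coordinate side the Creole libraries lay above by a narrow margin. Creole 1 read 27.5% over 51 cytosines, Creole 2 read 100% over 3 and Creole 3 read 20.0% over 5, while Spanish 1, 2 and 3 read 0.0% over 6, 16.7% over 6 and 18.8% over 16. On the higher-coordinate side, outside the listed region, Creole 2 and Creole 3 read 0.0% and 0.549%, below the 13.6% of Spanish 1 and the 22.2% of Spanish 3. The wide separation at SP8 was therefore measured within the gene coordinates, where these were covered, and the flanks overlapped between groups on the higher side.

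Pairs of libraries over the whole intervals gave a similar order for DLX6. At the cytosines outside the listed region that a Creole and a Spanish library both measured, the Creole library was the higher one in 8 of 9 pairs at DLX6, in 6 of 7 at SP8 (pairs with at least 5 shared cytosines) and in 5 of 9 at SHOX2. The pairs share libraries and are given as a description. The exception at DLX6 was Creole 2 at 10.0% against Spanish 1 at 39.4% over 40 cytosines. The exception at SP8 was Creole 1 at 29.5% against Spanish 3 at 40.0% over 5 cytosines. Over all chromosomes the Creole library was the higher one in 2 of 9 pairs, with mean differences between -0.996 and 0.377 points. The mean differences reached 34.7 points at DLX6 and 98.0 points at SP8. These means keep the sign, so opposite differences cancel over the 77550 or more cytosines of each chromosome pair. Without the sign, the mean difference was 15.2 to 17.5 points over all chromosomes. It was 17.4 to 43.8 points at DLX6, 13.0 to 98.0 at SP8 and 0.0 to 46.6 at SHOX2. Within groups, the DLX6 pairs of Creole libraries also differed, by means with sign of 11.1 to 30.6 points, and those of Spanish libraries by 0.26 to 19.7 points.

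Close to the DLX6 listed region, 1 bin of 100 bp separated the groups where the region itself could not be compared. In the bin at 14273301 to 14273400, the same 3 cytosines read 26.8% in Creole 1, 63.8% in Creole 2 and 65.7% in Creole 3, and 2.56% in Spanish 2 and 4.0% in Spanish 3, with Spanish 1 not measured. The unadjusted p of edgeR's quasi-likelihood test was 0.0272 and the adjusted p 1.0. This bin lies in the same 1000 bp window as the listed region. That region was already known as higher in Creole cattle when the genes were chosen, so the bin is no independent evidence. In Creole 2 the 3 cytosines of DLX6 read the same 44 methylated calls of 69, and in Creole 3 they read 66, 66 and 0 of 67. In the next measured bin, at 14273501 to 14273600, Spanish 3 was the highest library with 61.3%, above 32.6% in Creole 1, 25% in Creole 3 and 30.8% in Spanish 2. Among all 15 bins of the intervals tested in this way, 3 had an unadjusted p under 0.05 (background 3.02%) and 0 passed the adjusted threshold (background 0%). The Creole libraries all lay above the Spanish libraries in 5 of the 15 and the reverse held in 0 (backgrounds 8.72% and 10.9%). The bin at 14273301 to 14273400 is among the 3 and among the 5. The intervals were chosen for listed regions that were higher in Creole animals, so neither count is independent evidence against its background.

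Bins measured in all 6 libraries, and bins with a wide range within a group, show how much single animals differed over the cytosines that each measured. Outside the listed regions, 3 bins were measured in all 6 libraries. In the SP8 bin at 29596101 to 29596200, Creole 2 read 100% over 5 cytosines and each of the other 5 libraries read 0.0%. The latter rested on 11 cytosines in Spanish 1, 7 in Spanish 2 and 1 each in Creole 1, Creole 3 and Spanish 3. The libraries were therefore not all compared at the same sites. In the SHOX2 bin at 110288401 to 110288500, Spanish 2 read 66.7%, Creole 1 read 11.6% and the remaining 4 libraries read 0.49% or less. The third of these bins, at 110288601 to 110288700 beside SHOX2, read 0.0% in all 6. The SHOX2 bin at 110276901 to 110277000 had a Spanish range of 40.7 points, set by Spanish 2 alone. In the adjoining SHOX2 bin at 110277001 to 110277100, Creole 1 read 33.0%, Creole 3 read 0.178%, and Spanish 1 and Spanish 2 read 0.0%. The DLX6 bin at 14267301 to 14267400 read 53.3% in Spanish 1 and 0.0% in Creole 2 and Spanish 3. The SP8 bin at 29595601 to 29595700 had the widest Creole range, 63.6 points, with 36.4% in Creole 1 and 100% in Creole 3, against 3.37% in Spanish 1 and 0.0% in Spanish 2. In the SP8 bin at 29596201 to 29596300, Creole 1 and Creole 3 read 83.1% and 30.8%, and Spanish 2 and Spanish 3 read 0.164% and 0.0% (adjusted p = 1.0 by edgeR).

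Of 69 further transcription factor genes of limb and craniofacial development, looked up by name in the authors' deposited table, 4 had a listed region: HOXD11, LHX8, SP5 and TBX3. The share of all annotated genes that the 263 names make up was not computed, so the count of 4 gives no enrichment. All 4 are given as higher in Creole cattle in the authors' deposited table, where 236 of all 334 regions (70.7%) are. SP5, a zinc finger factor of the same family as SP8, was measured at its exonic region (chromosome 2, 25774367 to 25774487) in Creole 2 at 84.6% (95% Wilson interval 83.2 to 85.9%), in Spanish 1 at 7.69% (5.47 to 10.7%) and in Spanish 2 at 0.466% (0.128 to 1.68%). TBX3, a T-box factor of digit and mammary development, read 66.2% in Creole 1 (62.9 to 69.3%) and 100% in Creole 3 (97.6 to 100%), and 9.09%, 9.20% and 23.5% in Spanish 1, 2 and 3 (chromosome 17, 62303832 to 62303937). LHX8, a LIM homeobox factor of the palate, teeth and forebrain, read 36.5% in Creole 1 (32.7 to 40.6%), 78.6% in Creole 3 (77.4 to 79.8%) and 0.0% in Spanish 3, where 0 of 588 calls allow up to 0.51% (intronic, chromosome 3, 69914358 to 69914427). HOXD11, a homeobox factor of the forearm and digits, read 72.7% in Creole 1 (67.6 to 77.3%) and 0.0% in Spanish 1 and Spanish 2, which allows up to 0.758% and 0.505% (exonic, chromosome 2, 20840988 to 20841073). As at the DLX6 listed region, each of these regions was measured in a part of the libraries, with 3 to 5 of 6.

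In the RefSeq gene list, SHOX2 lies between RSRC1 and VEPH1, DLX6 between SEM1 and DLX5, and SP8 between ABCB5 and LOC613345. Each interval holds 1 listed region.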

How the data were processed

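Blood DNA of 6 cattle was profiled by reduced representation bisulfite sequencing. The submitters' processing notes list the genome UMD3.1 and the tools Trim Galore, Bismark and methylKit. What each tool did, its version and how PCR duplicates were treated is not given in the sources used here. The deposited coverage files give the count of methylated and unmethylated calls per cytosine, not normalized and with strands apart, and the percent deposited beside them was recomputed from the counts. Per the file headers, the authors' table of regions gives group means as a fraction, multiplied into percent here, and a score per region, which was not used. It holds 0 columns of single samples.

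SHOX2, DLX6 and SP8, and the lists of 69 developmental genes and 13 tissue markers, were chosen with earlier results of these data known. Groups follow the breed labels. Replicate numbers are names in accession order. The named bins were those measured in all 6 libraries and the 3 of widest range within a group per gene (2 for SP8, which had no more), and every window in a fit was named or counted. Single cytosines outside the listed regions, the SP8 island outside its listed region and the SP8 gene range were named after their values were seen.

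A cytosine entered with 10 or more calls in a library. Interval means weight cytosines equally, while windows, bins and listed regions sum calls. In the fits, windows of 1000 bp needed 3 cytosines and bins of 100 bp needed 2, on a fixed grid over 30 chromosomes, and scaffolds were left out. Bins grouped by density, and those named as measured in all 6 libraries, needed 1 cytosine per library. Methylated and unmethylated counts were tested with edgeR 4.0.16 in R 4.3.3 (quasi-likelihood F test with an effect per library, no dispersion trend, p adjusted by Benjamini-Hochberg over all windows, threshold 0.05). Alternatives were edgeR's likelihood ratio test and limma 3.58.1 on the log2 ratio of the 2 counts with 2 added to each. The planned mean over cytosines shared by all 6 libraries could be made for SHOX2 alone, and own cytosines of each library replaced it for DLX6 and SP8. The fits on own cytosines were added after the data were seen. Both fits were also run on simulated data, but the share of differences they could find is not given here. The lack of windows past the threshold therefore does not show a lack of differences. Genes next to the 3 members were read from RefSeq, whose assembly ARS-UCD2.0 differs from UMD3.1, so that it gave names and order alone. Sequences are not shown. Tables and plots were made in Python 3.11.15 with numpy 2.4.6, pandas 2.3.3, scipy 1.17.1 and matplotlib 3.10.9.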

Additional observations from a re-analysis of the deposited data

How the results depend on the processing

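Each animal is a single library, and p-values measure the spread between the animals of a group that were measured. These were 3 per group where cytosines were shared by all 6 libraries, and 2 or 3 in the fits on own cytosines. The spread holds differences of breed except between Creole 2 and Creole 3. On own cytosines it also holds differences in which cytosines each library measured. No paired analysis was possible because replicate numbers are accession order and no label links a Creole to a Spanish bull. Read minima of 5 or 20 calls kept the direction of every interval and listed-region difference they could be computed for. Removing fragment ends moved the DLX6 listed-region difference from 48.4 to 39.4 points, that of SP8 from 21.9 to 39.8 (with 2 Creole libraries left) and the SHOX2 interval on shared cytosines from -12.0 to -20.3. A minimum of 5 calls moved the last to -7.26, and 20 calls moved the SHOX2 interval on own cytosines from 9.13 to 14.1. Summing calls in place of weighting cytosines equally gave 46.2 points for the SP8 interval outside its listed region (36.3 before) and 66.6 points over the SP8 gene range (54.9 before), and lowered the DLX6 interval difference from 14.8 to 9.56. The likelihood ratio test of edgeR called 16 of the 2402 windows of shared cytosines on all chromosomes and 1 of the 13 windows of own cytosines in the intervals, where the quasi-likelihood test called 0 of each. The cause of these changes was not tested.

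Leaving out 1 library at a time gave a range of -22.0 to 7.98 points for the SHOX2 interval on shared cytosines, and of -0.386 to 16.0 on own cytosines. The direction reversed without Spanish 2 in the first (7.98) and without Creole 1 in the second (-0.386). The ranges were 6.70 to 20.8 points at the SHOX2 listed region, 10.9 to 18.9 for the DLX6 interval, 10.3 to 39.8 at the SP8 listed region, 33.1 to 40.0 for the SP8 interval and 50.7 to 62.3 over the SP8 gene range. The DLX6 listed region gave 48.4 points without any library other than Creole 1 or Spanish 1, and no value without either of them. The SP8 listed-region difference was 10.3 points without Creole 1, 39.8 without Creole 2 and 35.7 without Spanish 1, and the SHOX2 listed-region difference was 6.70 without Spanish 3. The counts of windows and bins past the threshold stayed at 0 with each library left out. The SHOX2 mean on shared cytosines gave no value at 20 calls.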
